A study of Rattus norvegicus with 4 samples.

Results

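The genes described here are the translation initiation and elongation factors, chosen by symbol as every gene whose name starts with Eif1 to Eif6 or Eef, without the eIF2 kinases and Eif2s3y. Of 14217 genes with a probe set of 1 symbol, 56 were chosen, represented by 88 of the array's 31099 probe sets. A gene's value is that of its brightest probe set, and the others were used as a check. The brightest set of 55 of these 56 genes passed the filter on dim signal. The exception was Eef1a2, the elongation factor form of muscle and nerve, whose signal reached at most 16.0. Sets annotated to a factor together with a pseudogene or second gene, which included those of Eif5 and Eif3e, were left out.

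Initiation factors bring the small ribosomal subunit and the initiator tRNA to an mRNA and set them on the start codon. The eIF4 factors bind the cap and unwind the leader of the mRNA, eIF3 holds the subunit and the other factors together, eIF2 carries the initiator tRNA as a GTP complex, and eIF2B reloads eIF2 with GTP. Elongation factors then deliver each aminoacyl-tRNA (eEF1) and move the ribosome along (eEF2). Control of both steps is known in immune and other cells: mTOR releases eIF4E from the 4E-BP proteins, and stress kinases that phosphorylate eIF2 block eIF2B.

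The AA4+ cells came from pancreatic lymph nodes of BioBreeding rats, all female and at day 65, and are labelled as mast cells. Diabetes-prone DRlyp/lyp rats, titled DP, carry the lyp mutation of Gimap5, and diabetes-resistant DR+/+ rats, titled DR, carry the normal gene. Each group is 1 RNA pool from 8 animals, amplified 2 times independently and hybridised to Affymetrix rat genome arrays, 4 arrays in all. The p-values below therefore measure the spread between amplifications and compare 1 pool with 1 pool, not the strains, and the number of arrays limits the precision.

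The pools differed in the markers of several cell types, and the part of those differences in the results below was not tested. For comparison with the counts here, 20.9% of all genes tested were higher in DRlyp/lyp and 21.1% lower (adjusted p under 0.05, limma). Summed signal of 12 T cell markers was 9072.4 to 9121 on the DRlyp/lyp arrays and 1824.9 to 1931.8 on the DR+/+ arrays, and 10 of the 10 tested were higher in DRlyp/lyp. Of 12 exocrine pancreas markers, 12 were higher (sums of 9645.4 to 9915.1 against 239.5 to 250.4), but 8 of them were too dim to pass the filter on either DR+/+ array and had to differ to be tested. Of 14 proliferation genes 11 were higher (6354.4 to 6383 against 4044.7 to 4234.6). Of 8 B cell markers 5 were lower (11237.7 to 11895.2 against 14623.9 to 15962.9), and of 11 macrophage and dendritic cell markers 7 were lower and 3 higher (8490.4 to 8553.2 against 12957.6 to 13583.4). Of 6 plasma cell markers 2 were higher (33.3%) and 1 lower (16.7%), with sums of 17534.8 to 17718 against 14656.7 to 15076.3. Of 9 tested mast cell markers 3 were higher (33.3%) and 2 lower (22.2%), with sums of 2951 to 3065.3 against 1954.4 to 1995.6. Much of that gap was the protease Mcpt1 (1664.8 and 1601.9 against 668.9 and 655.4), whereas the tryptases Tpsab1 (29.8 and 19.9 against 102.8 and 77) and Tpsb2 (34.4 and 28.7 against 92.6 and 89.4) were lower. Kit reached at most 11.3, below the filter. No marker with a probe set was at 0 on all arrays. In such bulk RNA, fewer cells of a type and less RNA per cell cannot be told apart. Beta-actin and Gapdh have control probe sets at both ends of the transcript, and a larger gap between 3′ and 5′ signal goes with shorter amplified RNA. That gap was wider in DRlyp/lyp by 1.44 (beta-actin) and 0.81 (Gapdh) on the log2 scale.

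More of the translation factors were lower than higher in the DRlyp/lyp pool. Of the 55 factors tested, 10 were higher and 18 lower at an adjusted p under 0.05 (limma), or 18.2% and 32.7%. Over all 9342 genes tested the shares were 20.9% higher and 21.1% lower. The median log2 difference, DRlyp/lyp minus DR+/+, was -0.12 for the factors and 0.00 for all genes. The median of the factors was -0.05 and -0.06 without DRlyp/lyp replicates 1 and 2, and -0.04 and -0.16 without DR+/+ replicates 1 and 2. Differences were small: those of the factors ran from -1.10 to 0.72, and Eif4a1 and Eef2k alone passed a 2-fold difference. Of the 55 factors 34 had a mean signal above 500, a level chosen after the values were seen. Of those 34, 20.6% were higher and 35.3% lower, against 32.6% and 27.2% of all genes above that level. Summed over the 56 brightest sets, the signal was 73307.6 and 73813.5 on the DRlyp/lyp arrays and 73200.9 and 72942.8 on the DR+/+ arrays. That sum made up 1.06% to 1.09% of an array's total. With each array centred on its median, a shift of -0.11 for all genes, the split of the factors was 3 higher and 20 lower, and all genes moved the same way, to 14.4% higher and 26.1% lower.

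**Figure D1:**
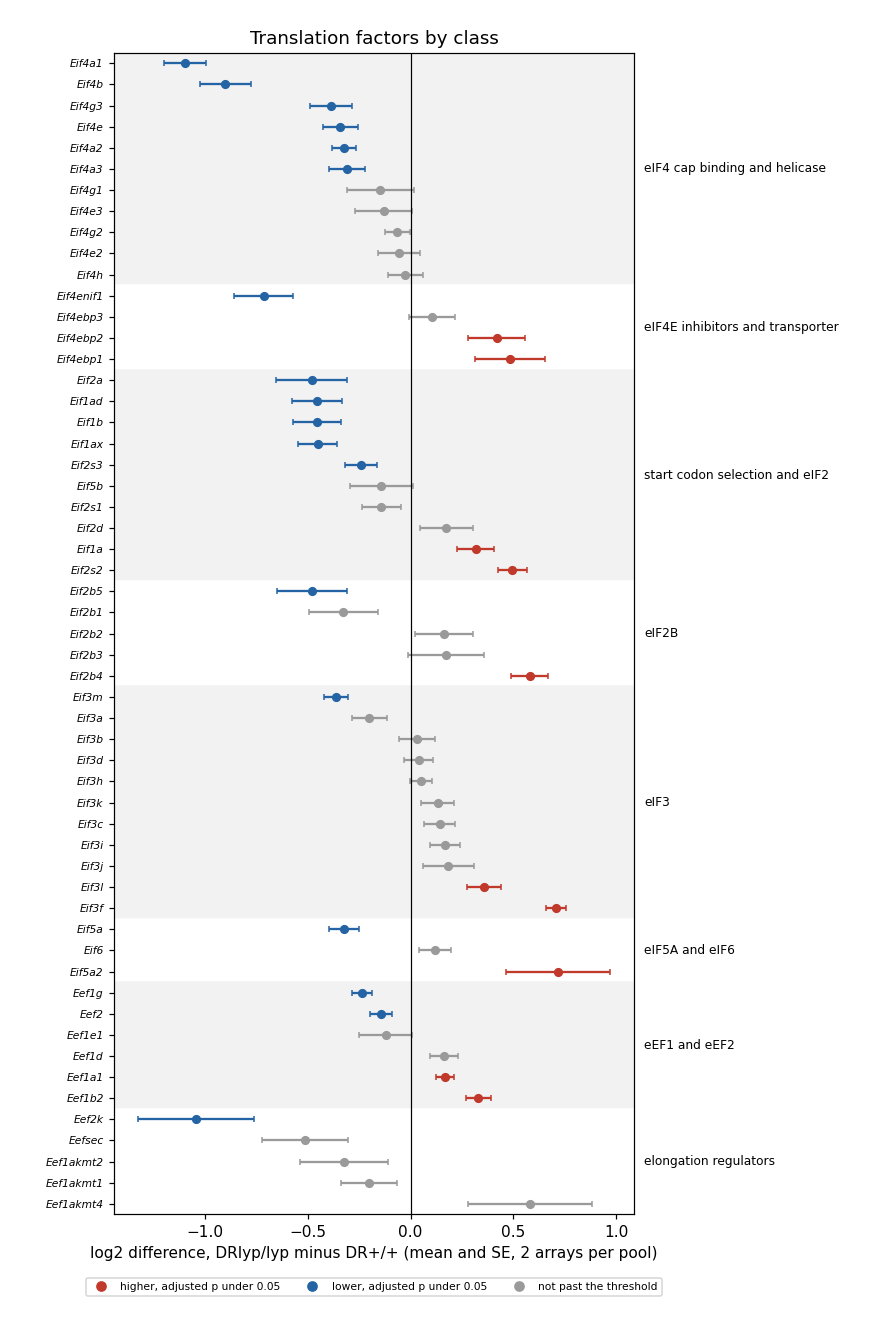
Log2 difference of each of the 55 tested factors (x axis, DRlyp/lyp minus DR+/+, 2 arrays per pool), grouped by class. Points are differences of means. Bars are limma's moderated SE of the difference, which draws on all tested sets and not on a factor's arrays alone. Colour marks an adjusted p under 0.05 (limma). The eIF4 cap binding and helicase factors all lie left of 0, from -1.10 to -0.03, while 9 of 11 eIF3 subunits lie right of it.

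The eIF4 cap-binding and helicase factors were lower or did not pass the threshold. Of 11 tested, 6 were lower (54.5%, against 21.1% of all genes) and none was higher (against 20.9%). At an unadjusted p under 0.05 (limma), 0 were higher. The differences of all 11 were negative, and the median was -0.31 (-0.22 without DR+/+ replicate 2). Eif4a1, the RNA helicase of the cap complex, read 820.8 and 724.5 in DRlyp/lyp against 1824.1 and 1493 in DR+/+. Both DRlyp/lyp arrays thus lay far below both DR+/+ arrays, a 2.14-fold lower signal (log2 difference -1.10 ± 0.10 SE, adjusted p = 1.14e-05). Eif4b, which stimulates that helicase, read 522.4 and 421 against 951.2 and 807.7 (1.87-fold lower, -0.90 ± 0.12, adjusted p = 0.000168). Eif4g3, a scaffold that joins the cap-binding protein to the helicase, read 445.4 and 463.9 against 596.2 and 591.8 (1.31-fold lower, -0.39 ± 0.10, adjusted p = 0.0109). None of these arrays overlapped between the pools, a condition for giving a factor's values in full.

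The other 3 lower factors were Eif4a2, the second helicase form, Eif4a3, the helicase of the exon junction complex, and the cap-binding protein Eif4e, with differences of -0.31 to -0.34. The main scaffold Eif4g1 (173.9 and 159.5 against 187.2 and 181.6) did not pass the threshold, nor did Eif4g2, Eif4h, Eif4e2 and Eif4e3. All 11 differences stayed negative with quantile normalization, 10 of 11 with the mean of probe sets, and 9 of 11 without DRlyp/lyp replicate 2. Median centring moved every gene down by the same amount, so it could not turn a negative difference positive. Eif4a1, Eif4a2 and Eif4b kept their calls without each array in turn. Those of Eif4g3 and Eif4a3 were lost without either DRlyp/lyp array (adjusted p of 0.0667 to 0.116), that of Eif4a3 also without DR+/+ replicate 2 (adjusted p = 0.0866), and that of Eif4e without DRlyp/lyp replicate 1 (adjusted p = 0.103).

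The sequence upstream of Eif4a1 is shown because this gene had the largest fall of the 55 factors. The 250 bases before its start site lie on the minus strand at chr10:54888603-54888852 of GRCr8 (RefSeq). Capitals here and below mark 3 motifs searched on both strands: the E-box CACGTG, bound by Myc and its relatives, the ETS core TTCCGG or CCGGAA, and the CCAAT box, CCAAT or ATTGG. Upstream of Eif4a1 there were 3 CCAAT boxes, starting 198, 149 and 63 bases before the start site.
Eif4a1: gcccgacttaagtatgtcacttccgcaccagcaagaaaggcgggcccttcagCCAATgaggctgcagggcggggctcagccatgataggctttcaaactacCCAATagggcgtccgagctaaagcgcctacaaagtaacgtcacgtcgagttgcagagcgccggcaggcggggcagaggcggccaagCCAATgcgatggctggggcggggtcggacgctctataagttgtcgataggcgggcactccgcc

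The proteins that hold eIF4E away from the cap complex went in both directions. Of 4 tested, 2 were higher (50%, against 20.9% of all genes) and 1 lower (25%, against 21.1%), and the median was 0.26. Eif4ebp1, the 4E-BP best known as an mTOR target, read 238.1 and 206.9 against 144.1 and 174.7 (1.40-fold, 0.48 ± 0.17, adjusted p = 0.0401), and Eif4ebp2 read 324.4 and 318.5 against 221.5 and 261.3 (1.34-fold, 0.42 ± 0.14, adjusted p = 0.0327). Eif4ebp3 did not pass the threshold (0.10 ± 0.11). Eif4enif1, which takes eIF4E into the nucleus and to P-bodies, read 188 and 214.2 against 339.3 and 320.1 (1.64-fold lower, -0.72 ± 0.14, adjusted p = 0.00192). By the same condition, the arrays of the pools did not overlap for Eif4ebp1, Eif4ebp2 or Eif4enif1. Eif4enif1 kept its call without each array in turn. Those of Eif4ebp1 and Eif4ebp2 were near the threshold: they were lost without DRlyp/lyp replicate 1 (adjusted p of 0.287 and 0.19), DRlyp/lyp replicate 2 (0.105 and 0.158) or DR+/+ replicate 1 (0.143 and 0.111), and with median centring (0.119 and 0.143).

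**Figure D2:**
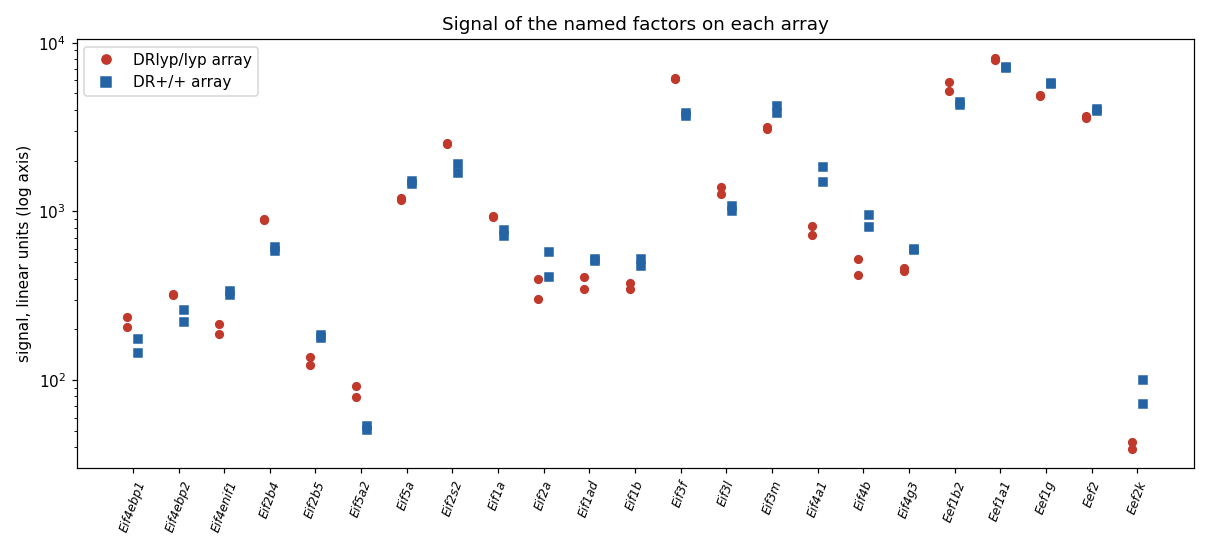
Signal (y axis, linear units on a log axis) of the 23 factors whose values are given in full, on each of the 2 DRlyp/lyp arrays (circles) and 2 DR+/+ arrays (squares). The arrays of the pools are well apart for Eif4a1 (820.8 and 724.5 against 1824.1 and 1493) and Eif3f, and close for Eef2 and Eef1a1.

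Factors of start codon selection and the eIF2 complex included more falls than rises. Of 10 tested, 5 were lower (50%, against 21.1% of all genes) and 2 higher (20%, against 20.9%), and the median was -0.19. Eif2a, a factor separate from eIF2 that can also bring the initiator tRNA, read 303.6 and 400.2 against 410.6 and 577 (1.40-fold lower, -0.48 ± 0.17, adjusted p = 0.043). Its arrays were the most spread, with 400.2 and 410.6 nearly meeting across the pools. Eif1ad, named for its eIF1A-like domain, read 344.9 and 406.9 against 505.2 and 522.8 (1.37-fold lower, -0.46 ± 0.12, adjusted p = 0.0102), and Eif1b, a close copy of the start codon factor eIF1, 378.3 and 346.7 against 520.3 and 472.9 (1.37-fold lower, -0.45 ± 0.12, adjusted p = 0.00907). Eif1ax and Eif2s3, the gamma subunit of eIF2, were also lower, with log2 differences of -0.45 and -0.24.

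The 3 subunits of eIF2 thus did not move together. Eif2s2, the beta subunit, read 2542.4 and 2503.6 against 1684.5 and 1901.2 (1.41-fold, 0.50 ± 0.07, adjusted p = 0.000248) and was higher without each array in turn. Eif2s3 was lower, and Eif2s1, the alpha subunit that stress kinases phosphorylate, did not pass the threshold (974.7 and 1049.9 against 1207.9 and 1031.5). Eif1a was the other higher factor, at 938.9 and 924.9 against 780.1 and 717.4 (1.25-fold, 0.32 ± 0.09, adjusted p = 0.0147), but the mean of its probe sets was lower (-0.66, adjusted p = 0.00455). Eif1a and Eif1ax are close copies, so a probe set of one may hold signal of the other, which was not tested.

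With 1 array left out, the log2 differences of this class moved to different degrees. Where its call was lost, Eif2s3 lay at -0.20 to -0.25 (-0.24 with all arrays) and Eif1a at 0.26 to 0.33 (0.32). Eif2a moved more, to -0.28 without DRlyp/lyp replicate 1 and -0.24 without DR+/+ replicate 2 (-0.48 with all arrays). Several calls of this class were lost in such fits. Without DRlyp/lyp replicate 1 those of Eif2a (adjusted p = 0.372), Eif1ad (0.152), Eif1ax (0.0505), Eif2s3 (0.163) and Eif1a (0.125) were lost. Without DRlyp/lyp replicate 2 those of Eif1b (0.109), Eif2s3 (0.122) and Eif1a (0.0969) were lost, without DR+/+ replicate 1 that of Eif2s3 (0.0984), and without DR+/+ replicate 2 those of Eif2a (0.318) and Eif1a (0.0554).

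Of 5 tested subunits of eIF2B, the exchange factor of eIF2, 1 passed in each direction, shares of 20% that are close to those of all genes. The median was 0.16, or 0.03 without DRlyp/lyp replicate 1. Eif2b4, the delta subunit of the regulatory part, read 898.7 and 890.6 against 613.7 and 584.9, with both DRlyp/lyp arrays above both DR+/+ arrays (1.49-fold, 0.58 ± 0.09, adjusted p = 0.000427). Its call held in 13 of 14 alternatives, the exception being a test against a 1.5-fold difference. Eif2b5, the catalytic epsilon subunit, read 136.3 and 123.5 against 183.9 and 177.9 (1.39-fold lower, -0.48 ± 0.17, adjusted p = 0.0432). That call was lost without any one of the 4 arrays (adjusted p of 0.127 and 0.237 without DRlyp/lyp replicates 1 and 2, and 0.0943 and 0.068 without DR+/+ replicates 1 and 2). Eif2b1, Eif2b2 and Eif2b3 did not pass the threshold (-0.33 to 0.17), although Eif2b1 did without DR+/+ replicate 2 (-0.52, adjusted p = 0.0358).

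Most subunits of the eIF3 complex did not pass the threshold. Of 11 subunits tested, 2 were higher (18.2%, against 20.9% of all genes) and 1 lower (9.09%, against 21.1%). The differences of 9 were positive, and the median was 0.13, or 0.05 without DRlyp/lyp replicate 2. It was 0.08 without either DR+/+ array. Eif3f, a subunit of the eIF3 core, read 6138.8 and 6096.8 against 3677.5 and 3823.2. The 2 arrays of each pool nearly coincided and the pools were far apart, a 1.63-fold higher signal with the smallest adjusted p of all factors (0.71 ± 0.05, adjusted p = 1.05e-06). Eif3l, another core subunit, read 1390.6 and 1272.8 against 1078.6 and 999.1 (1.28-fold, 0.36 ± 0.08, adjusted p = 0.00531). Eif3m, also of the core, went the other way, at 3067.3 and 3166.1 against 4191.1 and 3834 (1.29-fold lower, -0.36 ± 0.06, adjusted p = 0.000577). The remaining 8 subunits, Eif3a, Eif3b, Eif3c, Eif3d, Eif3h, Eif3i, Eif3j and Eif3k, lay between -0.20 and 0.18 and did not pass the threshold. The direction of the small differences depended on scaling: with median centring 6 were positive and 5 negative. Eif3f and Eif3m kept their calls without each array in turn, whereas Eif3l lost its call without DRlyp/lyp replicate 1 (adjusted p = 0.0991) and with median centring (0.0695).

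Eif3f had the rise with the smallest adjusted p, and its upstream sequence is given for comparison with that of Eif4a1. The 250 bases before its start site lie on the plus strand at chr1:172368812-172369061 of GRCr8 (RefSeq). They hold 1 ETS core starting 98 bases and 1 E-box starting 59 bases before the start site, and 3 CCAAT boxes at 89, 82 and 41 bases.
Eif3f: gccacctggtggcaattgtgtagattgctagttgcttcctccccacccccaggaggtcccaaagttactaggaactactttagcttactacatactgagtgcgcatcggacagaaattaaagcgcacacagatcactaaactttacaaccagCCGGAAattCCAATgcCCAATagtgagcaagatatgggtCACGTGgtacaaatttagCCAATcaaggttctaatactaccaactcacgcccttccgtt

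The 2 forms of eIF5A, the hypusine-bearing factor that helps ribosomes through stalls, differed in opposite directions. Eif5a, the common form, read 1165.1 and 1196.1 against 1447 and 1510 (1.25-fold lower, -0.32 ± 0.07, adjusted p = 0.00481), and did not pass when DRlyp/lyp replicate 1 was left out (adjusted p = 0.0625). Eif5a2 was dim, at 92.3 and 79.6 against 50.5 and 53.8 (1.64-fold, 0.72 ± 0.25, adjusted p = 0.0407). Its call was lost without any one array (adjusted p of 0.255 and 0.121 without DRlyp/lyp replicates 1 and 2, and 0.0813 and 0.0559 without DR+/+ replicates 1 and 2) and with median centring (0.0787). Eif6, which keeps the ribosomal subunits apart, did not pass the threshold (0.12 ± 0.08).

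The upstream sequences of this pair are shown because paralogs moved apart. The window of Eif5a is on the minus strand at chr10:55143222-55143471 and that of Eif5a2 on the plus strand at chr2:113657584-113657833 (GRCr8, RefSeq). Eif5a holds 1 E-box starting 206 bases before the start site and 1 CCAAT box. Eif5a2 holds E-boxes at 196 and 171 bases, ETS cores at 218 and 90 bases and 1 CCAAT box at 137 bases.
Eif5a: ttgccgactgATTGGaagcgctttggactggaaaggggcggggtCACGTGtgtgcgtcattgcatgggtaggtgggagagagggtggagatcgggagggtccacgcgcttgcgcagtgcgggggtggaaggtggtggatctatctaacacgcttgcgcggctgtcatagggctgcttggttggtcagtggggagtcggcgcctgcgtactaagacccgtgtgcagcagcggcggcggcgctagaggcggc
Eif5a2: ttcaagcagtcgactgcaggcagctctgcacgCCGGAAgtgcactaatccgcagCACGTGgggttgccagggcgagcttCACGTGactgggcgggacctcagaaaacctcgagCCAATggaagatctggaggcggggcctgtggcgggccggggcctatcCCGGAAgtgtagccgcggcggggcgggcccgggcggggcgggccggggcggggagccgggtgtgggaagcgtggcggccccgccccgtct

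Upstream windows were found for 51 of the 56 factors. A factor was counted if any of its windows held a match (55 windows for 51 factors). The share over all is per window, so the units differ. An E-box was present in 11 of the 51 (21.6%) against 5.59% of all 33469 windows of the same length. An ETS core was present in 24 (47.1%) against 12.6%, and a CCAAT box in 14 (27.5%) against 34%. The windows of the factors were richer in G and C (59.6%) than all windows (52.2%). By call, an E-box lay upstream of 2 of 9 higher, 5 of 17 lower and 4 of 24 other tested factors, and an ETS core upstream of 5 of 9, 8 of 17 and 11 of 24. A CCAAT box lay upstream of 2 of 9, 6 of 17 and 6 of 24. A match is a description of these letters and not a site.

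Differences of the elongation factors proper were small. Of 6 tested, 2 passed in each direction (33.3% each, against 20.9% of all genes higher and 21.1% lower), and their median was 0.02. Eef1a1, which carries aminoacyl-tRNA to the ribosome, read 7924.7 and 8071.7 against 7176.9 and 7061.1 (1.12-fold, 0.17 ± 0.04, adjusted p = 0.00813). Eef1b2, a subunit of its exchange factor, read 5193.9 and 5839 against 4298.8 and 4473.9 (1.26-fold, 0.33 ± 0.06, adjusted p = 0.00118). Eef1g, the subunit that anchors that exchange factor, went the other way at 4872.5 and 4809.8 against 5675 and 5736.5 (1.18-fold lower, -0.24 ± 0.05, adjusted p = 0.00196). Eef2, the translocase, read 3677.8 and 3563.6 against 4052.4 and 3955.3 (1.11-fold lower, -0.15 ± 0.05, adjusted p = 0.0472). The steps of all 4 were 1.26-fold or less. Their arrays did not overlap between the pools, a condition for giving their values in full.

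Eef1b2 and Eef1g kept their calls without each array in turn, but with median centring Eef1b2 did not pass (0.22, adjusted p = 0.0717). Eef1a1 turned to -0.11 with quantile normalization (adjusted p = 0.0568), so its direction depended on the scaling. It also lost its call with median centring (0.06, adjusted p = 0.588), without DRlyp/lyp replicate 2 (adjusted p = 0.067) and without DR+/+ replicate 2 (0.0573). Eef1a1 has many processed copies in the genome, which its probe sets may also detect, though this was not tested. Eef2 lost its call without any one array (adjusted p of 0.115 and 0.233 without DRlyp/lyp replicates 1 and 2, and 0.155 and 0.081 without DR+/+ replicates 1 and 2). Eef1d and Eef1e1 did not pass the threshold.

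Among the enzymes that act on elongation factors, Eef2k was the 1 of 5 called, a share of 20% lower against 21.1% of all genes. This kinase phosphorylates eEF2 and slows elongation. Its brightest set had low signals, at 39.2 and 43.1 against 99.8 and 72 (2.06-fold lower, -1.04 ± 0.28, adjusted p = 0.0118). It did not pass when DRlyp/lyp replicate 1 (0.0855), DRlyp/lyp replicate 2 (0.057) or DR+/+ replicate 1 (0.0774) was left out, these being adjusted p. Another of its sets read the opposite way, at 72 and 63 against 43.5 and 30.2 (0.89, adjusted p = 0.0385). Averaged over its sets, Eef2k differed by -0.29 (adjusted p = 0.421). The selenocysteine factor Eefsec (-0.51) and the methyltransferases Eef1akmt1, Eef1akmt2 and Eef1akmt4 (-0.32 to 0.58) did not pass the threshold. None of the 5 was higher, against 20.9% of all genes (0 also at an unadjusted p under 0.05, limma).

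Different probe sets of the same factor often disagreed. For 16 factors at least 1 further set passed the filter, 21 sets in all, and 10 of these 21 (47.6%) had the sign of the brightest set, against 55.3% of 2749 such sets over all genes. Of the 21, 4 were higher and 5 lower. Over all genes 9.97% of such sets were higher and 24.2% lower. In 4 of the 21 (19%) the call was opposite to that of the brightest set, against 6.22% over all genes. Those 4 sets belonged to Eif1a, Eif3l and Eef2k.

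For Eif1a the brightest set was higher and 2 others were lower, at 180.9 and 182.2 against 335.9 and 327.8 (-0.87, adjusted p = 0.000441) and at 35 and 46.1 against 112.7 and 123.5 (-1.55, adjusted p = 0.000623). For Eif3l the second set read 51.7 and 66.3 against 136.5 and 132 (-1.20, adjusted p = 0.00154), and the mean of both sets was lower (-0.42, adjusted p = 0.0179). The directions given above for Eif1a and Eif3l therefore hold for the brightest set and not for the gene. Eif4g2, a scaffold relative used in cap-independent initiation, had a brightest set that did not pass (-0.06), another that was higher (0.34, adjusted p = 0.00885) and a further one that was lower (-1.23, adjusted p = 0.000399), and averaged over the sets it was lower (-0.32, adjusted p = 0.0166). The second set of Eif4b did not pass, at 641.3 and 419.2 against 566.6 and 493.3 (-0.03, adjusted p = 0.913), so 1 of 2 sets carried the fall of that gene. With the mean of their sets Eif4b stayed lower, while Eif4e (-0.03, adjusted p = 0.904) and Eef1g (-0.06, adjusted p = 0.666) lost their calls. A dim set of Eif3h read 77.9 and 79.2 against 18.1 and 9.8, below the filter on both DR+/+ arrays, which gives at least 2.78-fold. Since the DRlyp/lyp arrays alone brought it past the filter, it had to differ, and the brightest set of Eif3h did not pass (0.05 ± 0.05). Both sets of Eef1a1 were higher. Eif4a1, Eif3f, Eif2b4, Eif2s2, Eif3m and Eif4enif1 had 1 set each, so no such check can be made for them. The part of the larger 3′ to 5′ difference of the DRlyp/lyp pool in these disagreements was not tested.

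**Figure D3:**
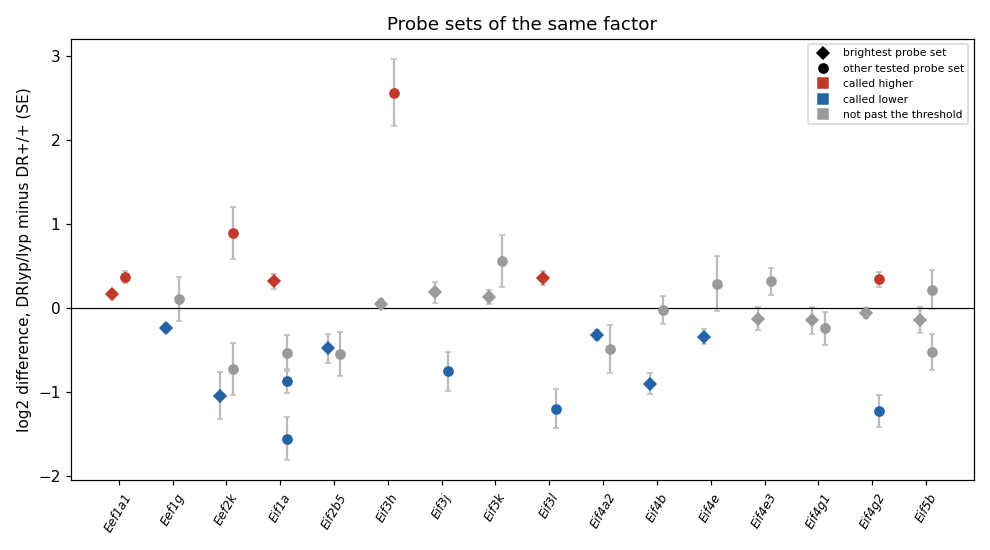
Log2 difference (y axis, DRlyp/lyp minus DR+/+) of the brightest probe set (diamond) and of each other tested set (circle) for the 16 factors with more than 1 tested set. Bars are limma's moderated SE of the difference, and colour marks the call. The sets of Eif1a, Eif3l and Eef2k lie on both sides of 0 with calls each way.

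Genes that act on these factors were read from lists, with 1 gene named each way unless stated. Over all genes tested, 20.9% were higher and 21.1% lower. The eIF2 kinases, phosphatases and stress response genes were mostly lower: 10 of the 19 tested (52.6%) were lower and 1 (5.26%) was higher. Their median was -0.44. Eif2ak3 (PERK), the eIF2 kinase of the endoplasmic reticulum, read 124.1 and 118.9 against 406.2 and 423.6 (3.41-fold lower, adjusted p = 3.32e-06). Its arrays lay well below those of DR+/+. Further lower members, named after their values were seen, were the kinases Eif2ak2 (PKR, -0.44) and Eif2ak4 (GCN2, -0.63), whereas Eif2ak1 (0.04) did not pass the threshold. Also in that set were Atf4, the transcription factor translated when eIF2 is phosphorylated (967.5 and 971.6 against 2617.1 and 2765.7, 2.77-fold lower, adjusted p = 4.53e-08), and Ppp1r15a, the phosphatase subunit that reverses the mark (124.6 and 98.1 against 293.9 and 280.2, 2.60-fold lower, adjusted p = 9.07e-05). The 1 higher gene was the phosphatase catalytic subunit Ppp1cc, at 5388.7 and 5313.9 against 4178.2 and 4161.7 (1.28-fold, adjusted p = 0.000144). Asns, an Atf4 target also named after its values were seen, did not pass the threshold (-0.08).

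Genes of mTOR and MNK signalling did not share that direction. Among the 21 tested, 5 rose (23.8%, against 20.9% of all genes) and 2 fell (9.52%, against 21.1%), and the median was 0.13. Deptor, an inhibitor of mTOR, read 140.2 and 123.5 against 32.3 and 58.3 (3.03-fold, adjusted p = 0.0012), and Ddit4, a stress-induced inhibitor of mTORC1, 308.6 and 302.4 against 1076.6 and 617.6 (2.67-fold lower, adjusted p = 0.000172). The kinases Mtor, Rps6kb1, Mknk1 and Mknk2, named after their values were seen, lay between -0.20 and 0.23 and did not pass the threshold.

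Of 19 tested genes of the mRNA closed loop and other initiation helpers 6 were higher (31.6%) and 2 lower (10.5%). The shares of all genes were 20.9% and 21.1%. Ythdf2, a reader of methylated mRNA, read 704.4 and 691.2 against 361.5 and 359.1 (1.94-fold, adjusted p = 3.04e-05), but averaged over its sets the log2 difference was 0.18 (adjusted p = 0.18). Denr, which helps re-initiation, read 216.8 and 239 against 431.9 and 352.5 (1.71-fold lower, adjusted p = 0.00122). Of 14 genes of termination, recycling and the hypusine and diphthamide modifications 6 were higher (42.9%) and 0 lower (1 lower at an unadjusted p under 0.05, limma). Of these 6, Dph3, Dph5 and Dph7 make the diphthamide of eEF2. Dph7 read 322.5 and 261.2 against 160 and 179.8 (1.71-fold, adjusted p = 0.00256). It did not pass the threshold when DRlyp/lyp replicate 1 was left out (log2 difference 0.62, against 0.77 with all arrays). The diphthamide genes did not all rise: Dph2 read 74.1 and 47.2 against 105.2 and 86.6 (-0.69, adjusted p = 0.0666). Neither Dph2 nor Dph6 (0.13) passed the threshold.

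Cytosolic aminoacyl-tRNA synthetase genes, whose products charge tRNAs with amino acids, went both ways. Of 21 tested, 4 were higher and 6 lower (19% and 28.6%, against 20.9% and 21.1% of all genes). Yars1, the tyrosine enzyme, read 1025.6 and 1044 against 584.4 and 502 (1.91-fold, adjusted p = 2.74e-05). Hars1, the histidine enzyme, read 83.3 and 98.9 against 227.3 and 256 (2.66-fold lower, adjusted p = 0.000107). Of 7 mitochondrial translation factors 1 was higher and 1 lower (14.3% each). The elongation factor Tufm read 923.2 and 907.1 against 674.2 and 668.3 (1.36-fold, adjusted p = 0.00186). Its exchange factor Tsfm read 119.3 and 132.4 against 171.4 and 197.7 (1.46-fold lower, adjusted p = 0.0276). Tsfm did not pass when DRlyp/lyp replicate 1 (adjusted p of 0.188), DRlyp/lyp replicate 2 (0.0928) or DR+/+ replicate 2 (0.103) was left out. Yars1, Hars1, Tufm, Tsfm, Ythdf2, Denr and Dph7 were picked as the largest called differences of their lists. That the arrays of the pools did not overlap for them is therefore no separate support.

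**Figure D4:**
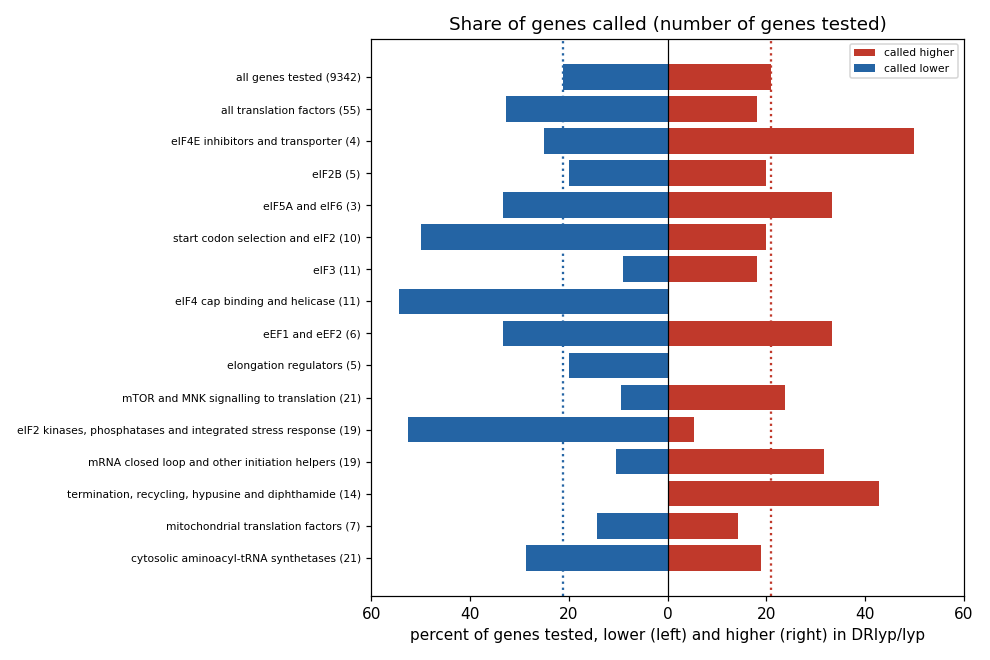
Percent of tested genes called lower (bars to the left) and higher (bars to the right) in DRlyp/lyp, for all genes, all translation factors, each factor class and each list of related genes, with the number tested in brackets; dotted lines mark the shares of all genes, 21.1% and 20.9%. The eIF4 class (6 of 11) and the eIF2 kinase and stress response list (10 of 19) have the largest shares of lower genes, closely followed by the start codon and eIF2 class (5 of 10).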

How the data were processed

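The values deposited by the authors are intensity on a linear scale, 1 per probe set and array. Per the series' design text, about 50 ng of pooled RNA was amplified in 2 cycles. Which program made and scaled them is not given in the sources used here, though each array had a 2% trimmed mean of 150.1. No further normalization was applied. Signals under 6.8, the 25th percentile over all arrays, were set to it before taking log2. A probe set was tested if 2 or more arrays exceeded 28.3, the median over all arrays, which left 16068 sets without controls. The test was limma 3.58.1 in R 4.3.3 (lmFit, eBayes with an intensity trend, two-sided, Benjamini-Hochberg over all sets tested, 2 residual degrees of freedom). The test was also run on simulated data, with the outcome not reported here. Each SE given is limma's moderated SE of the difference, which draws on all tested sets and not on a gene's arrays alone. Symbols came from the platform annotation of 2016, and the 56 symbols equal those of the RefSeq table of GRCr8.

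Groups and replicate numbers come from the sample titles. Members, classes and lists were chosen with earlier results of these data known. Values are given in full for up to 3 called factors each way per class whose arrays did not overlap, and for the largest called gene each way of each list. Alternatives were another normalization, centring, filter, floor, offset, replicate block, variance model, minimum fold, probe set summary and each array left out. Figures were drawn with matplotlib 3.10.9.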

Additional observations from a re-analysis of the deposited data

How the results depend on the processing

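The number of called factors changed with several settings, and that over all genes changed with it; the cause was not tested. Against 10 higher and 18 lower (20.9% and 21.1% of all genes), there were 2 and 1 with no filter on dim sets (4.78% and 5.3%) and 3 and 4 with no intensity trend in the variance (11.9% and 12.7%). Limma's test against a 1.5-fold difference gave 0 and 1 (2.88% and 2.84%), or 1 and 2 at an unadjusted p under 0.05. With each array centred on its median there were 3 higher and 20 lower (14.4% and 26.1%). Leaving out 1 array gave 5 to 7 higher and 7 to 15 lower (11.4% to 20% and 12.5% to 18.6%), with a lone array assumed to vary like the other pool. With the replicate block there were 12 higher and 19 lower. The replicate numbers share only a number (correlation of deviations 0.04 over 2 pairs). Of the 28 called factors, 10 kept their call without each array in turn and 25 kept their sign in all alternatives run. The 3 that changed sign were Eif1a (-0.66) and Eif3l (-0.42) with the mean of their probe sets and Eef1a1 (-0.11) with quantile normalization. The cause was not tested. Changes of filter, replicate block, variance model and minimum fold left each log2 difference as it was, so these could not change a sign. Eif4a1, Eif3f and Eif2b4 kept their call in 13 of 14 alternatives. Signal near the filter limits Eef2k and Eif5a2 among the factors, and Deptor among the related genes.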
